A study of Mus musculus with 12 samples.

Results

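Imprinted genes of the Prader-Willi region on mouse chromosome 7 were examined in premalignant pre-B cells with and without Smchd1. A list of 8 genes (Ndn, Mkrn3, Magel2, Peg12, Snrpn, Snurf, Ube3a and Atp10a) was matched to the probes of an Illumina mouse array by their target names, written NDN, MKRN3, MAGEL2, PEG12, SNRPN, SNURF, UBE3A and ATP10A, whether or not a probe was detected. The match gave 15 probes, of 45281 on the array, for 7 of the 8 genes, out of 28888 gene names the array covers. Ube3a had 7 probes, Snurf had 3, and Ndn, Mkrn3, Magel2, Peg12 and Atp10a had 1 each. No probe carried the name Snrpn. Snurf and Snrpn share a transcript, and without probe sequences it cannot be said whether the Snurf probes read Snrpn too.

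The series compared 6 Smchd1 null with 6 Smchd1 wildtype samples, with 1 array per sample. All 12 samples were of the C57BL/6 strain and carried the Eµ-Myc transgene, in which an immunoglobulin heavy chain enhancer drives the Myc oncogene in B-lineage cells, so the wildtype samples carried it too. The null samples were in addition homozygous for a genetrap allele of Smchd1, a non-canonical SMC-family protein known for its part in X inactivation. The cells were harvested fresh from mice and sorted. Neither separate mice nor ages are stated, so p-values measure only the spread among these arrays, which may be technical.

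The genes of this region are expressed from 1 parental copy in tissues where they are imprinted. In mouse and human, Ndn, Mkrn3, Magel2, Snrpn and Snurf are expressed from the paternal copy, as Peg12 is in mouse, and the maternal copy is methylated at an imprinting centre at the start of Snrpn. Ube3a is expressed from the maternal copy in neurons and from both copies in most other tissues, and the imprint of Atp10a in mouse differs between reports. Loss of the paternally expressed genes causes Prader-Willi syndrome in human, and loss of the maternal UBE3A in brain causes Angelman syndrome. An array of this kind reads RNA from both copies together, so it gives no allele.

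In the RefSeq gene table of assembly GRCm38.p6 the genes follow each other in the order Atp10a, Ube3a, Snurf and Snrpn, Ndn, Magel2, Mkrn3 and Peg12. The starts of Ndn and Mkrn3, the only 2 of the genes whose probes rose in null cells, lie 71.9 kb apart, with Magel2 between them. The 250 bases before the start of these genes, and of 1 of the upstream starts of Snrpn, are shown because Ndn and Mkrn3 rose, Magel2 between them stayed at the background, and the Snrpn start shares a motif with Ndn. They are from RefSeq, read 5′ to 3′ on the strand of the gene. Capitals mark matches to the core of the NRF1 motif (GCATGCG) or to the YY1 motif (CCATNTT), searched on both strands.
Ndn, chr7:62348027-62348276, plus strand: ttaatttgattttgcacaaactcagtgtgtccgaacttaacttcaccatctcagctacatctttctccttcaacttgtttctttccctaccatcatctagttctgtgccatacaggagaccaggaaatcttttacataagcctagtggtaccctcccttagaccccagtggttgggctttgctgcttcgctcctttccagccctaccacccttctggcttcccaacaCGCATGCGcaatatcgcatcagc
Magel2, chr7:62376729-62376978, plus strand: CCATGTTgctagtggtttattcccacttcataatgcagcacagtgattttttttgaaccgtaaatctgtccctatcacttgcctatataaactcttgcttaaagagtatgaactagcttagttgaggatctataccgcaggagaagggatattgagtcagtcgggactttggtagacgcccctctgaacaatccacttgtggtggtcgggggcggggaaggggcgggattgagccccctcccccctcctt
Mkrn3, chr7:62420154-62420403, minus strand: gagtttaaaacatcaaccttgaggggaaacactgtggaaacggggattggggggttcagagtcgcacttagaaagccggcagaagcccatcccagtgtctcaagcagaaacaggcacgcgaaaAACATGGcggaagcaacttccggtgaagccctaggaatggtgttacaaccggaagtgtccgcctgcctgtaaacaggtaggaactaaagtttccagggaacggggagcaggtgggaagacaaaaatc
Snrpn upstream start, chr7:60047979-60048228, minus strand: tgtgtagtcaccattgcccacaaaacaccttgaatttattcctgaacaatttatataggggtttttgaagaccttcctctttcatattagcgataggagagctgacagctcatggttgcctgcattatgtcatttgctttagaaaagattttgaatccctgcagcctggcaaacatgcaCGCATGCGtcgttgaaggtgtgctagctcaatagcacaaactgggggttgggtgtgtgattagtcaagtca

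The Ndn promoter held 2 overlapping matches to the NRF1 core, 1 on each strand, 23 and 22 bases before the start. The 2 are 1 palindrome, CGCATGCG, counted once on each strand. The same palindrome stood before all 3 upstream starts of Snrpn in the table and before no other start of the listed genes. The bases around it are near-identical at those 3 starts, so they are not 3 separate occurrences. Of 32851 promoters of the same length, 3.02% held the NRF1 core on either strand, with or without the palindrome. The Mkrn3, Magel2 and Ube3a promoters each held 1 match to the YY1 motif, found in 12.4% of all promoters. The motif of ZFP57 (TGCCGC), a factor that protects methylation imprints, was found in 8.68% of all promoters and in none of those of the listed genes. CpG dinucleotides numbered 5 in the Ndn promoter, 7 in Magel2, 10 in Mkrn3 and 8 in Peg12, against a median of 6 over all promoters. The Snrpn start that the table shares with Snurf held 3 CpG and the Ube3a promoter 24. A match is a run of letters, not a measured binding site.

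The arrays detected similar numbers of probes and differed more in brightness. Between 15396 and 16587 probes per array were detected, meaning a detection p under 0.05 against the negative control probes. Mean raw intensity ran from 262.1 (null 4) to 507.1 (null 2), and was 3.08 to 4.43 times the mean of those controls. The arrays lay on 2 BeadChips, with 3 of either genotype on each. The brightest Smchd1 probe fell by 4.42 on the log2 scale in null cells, from 9.47 ± 0.14 to 5.05 ± 0.35 (SD, n = 6 each; limma adjusted p = 1.3e-09). It was still detected on 4 of 6 null arrays. Probe ILMN_1230552 of Smchd1 fell by 1.39 (limma adjusted p = 6.3e-05) and was detected on 6 of 6 null arrays. Probe ILMN_2853225 fell by 1.31 (limma adjusted p = 1.1e-05) and was detected on 6 wildtype and 0 null arrays. The other Smchd1 probes, ILMN_2490558 and ILMN_2663704, were detected on 0 arrays of either group. Of 14 pre-B cell marker genes matched to the array, 10 were detected on all 12 arrays, among them Cd79b and Igll1, while Vpreb2 was detected on none.

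Ndn and Mkrn3 were higher in Smchd1 null cells, and no other gene of the region passed the test. Ndn encodes necdin, a MAGE-family protein that restrains growth and is best known from neurons, and its probe rose from the background to a level at least 15.4-fold higher. Mkrn3 encodes a makorin RING-finger protein, known in human as a brake on the onset of puberty, and its probe rose at least 2.36-fold. Magel2 and Peg12 were detected on no array of either group. Ube3a, Atp10a and Snurf had probes detected in both groups, with differences between -0.24 and 0.08 on the log2 scale.

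**Figure D1:**
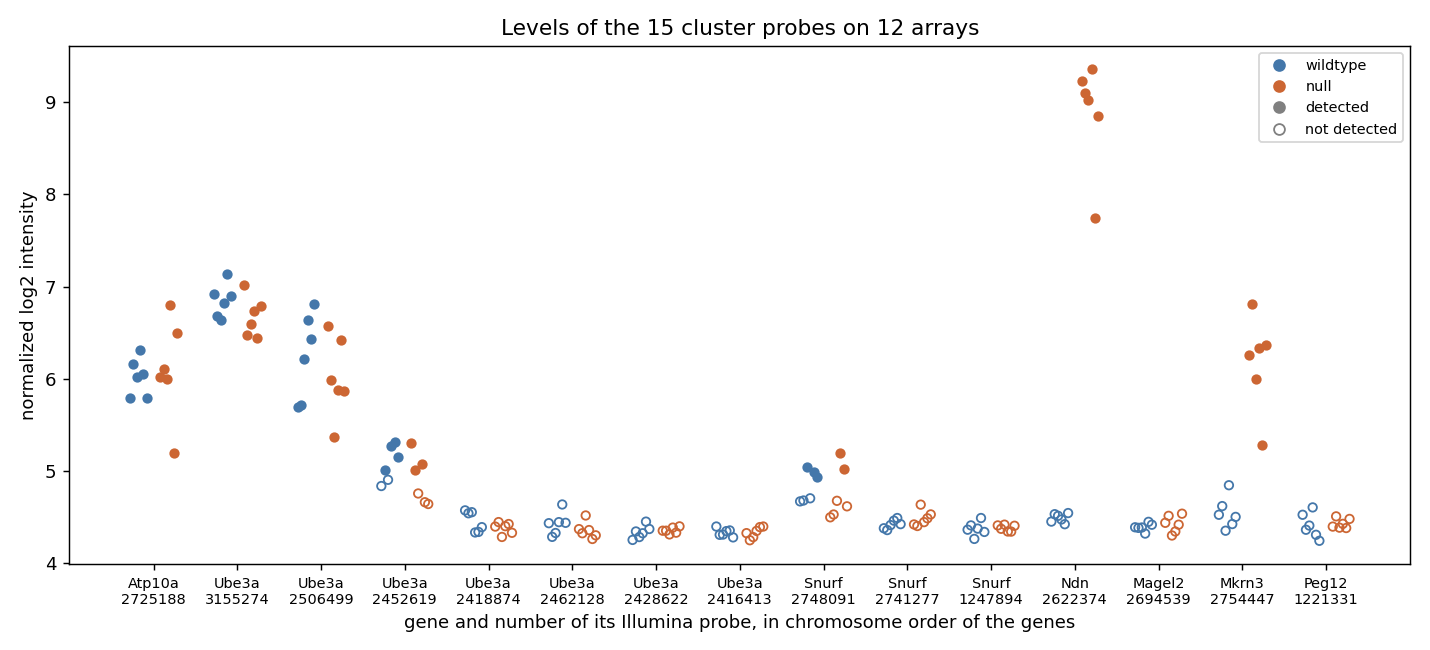
Normalized log2 intensity of the 15 probes (x axis, in chromosome order of the genes) on each of the 12 arrays, blue for wildtype and orange for null, filled where the probe was detected. The 6 null arrays of the Ndn and Mkrn3 probes lie above all 6 wildtype arrays, and 8 probes have open points only.

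Over all 15 probes, fitted without a filter on dim probes, 2 were higher in null cells at a limma adjusted p under 0.05 and 0 were lower; 0 were lower at an unadjusted p under 0.05 as well. Of all 45281 probes 0.108% were higher and 0.115% lower in that fit. The median difference of the 15 probes was 0.01, beside -0.01 over all probes. When the fit was limited to probes detected on at least 3 of the 12 arrays, 7 of the 15 were tested, and again 2 were higher and 0 lower. In that fit 0.534% of 17607 tested probes were higher and 0.687% lower, 1.22% together. The Ndn and Mkrn3 probes entered it through the null arrays alone, since no wildtype array detected either. In sorted cells measured in bulk, more cells that express a gene and more RNA per cell cannot be told apart.

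The Ndn probe (ILMN_2622374) stood at the background on all 6 wildtype arrays. Its raw intensity there was 93.6 to 111.5, which is 0.987 to 1.03 times the mean of the negative controls, and its detection p ran from 0.216 to 0.510. On the normalized log2 scale the wildtype arrays read 4.42 at the lowest, 4.49 at the median and 4.54 at the highest. All 6 null arrays detected the probe, and every one lay above every wildtype array. Their raw intensities were 662.9, 918.5, 745.8, 485.7, 250.9 and 437.3 for null 1 to null 6, between 2.65 and 8.02 times the mean of the negative controls. Null 5 was the dimmest and null 2 the brightest in raw intensity. After normalization the same arrays read 9.23, 9.10, 9.02, 9.36, 7.74 and 8.85, so that null 4 became the highest and null 5 remained the lowest.

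The null mean of Ndn was 8.88 ± 0.58 and the wildtype mean 4.49 ± 0.05 (SD, n = 6 each). The difference was 4.40 (SE 0.21, 95% interval 3.94 to 4.86, limma adjusted p = 6.4e-08 over the tested probes and 1.3e-06 over all probes without a filter, higher in 6 of 6 null arrays). Since the wildtype arrays did not detect the probe, the fold is a bound. It sets the null mean against the lowest level that counted as detected on each wildtype array, which gives at least 15.4-fold. The lowest null array lay 3.20 above the highest wildtype array. The spread was wider in null than in wildtype arrays, and null 5 carried most of it: it lay 1.37 below the mean of the other 5 null arrays, whose mean was 9.11 with an SD of 0.19. The normalized levels of the null arrays spanned 3.06-fold, or 1.42-fold without null 5.

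**Figure D2:**
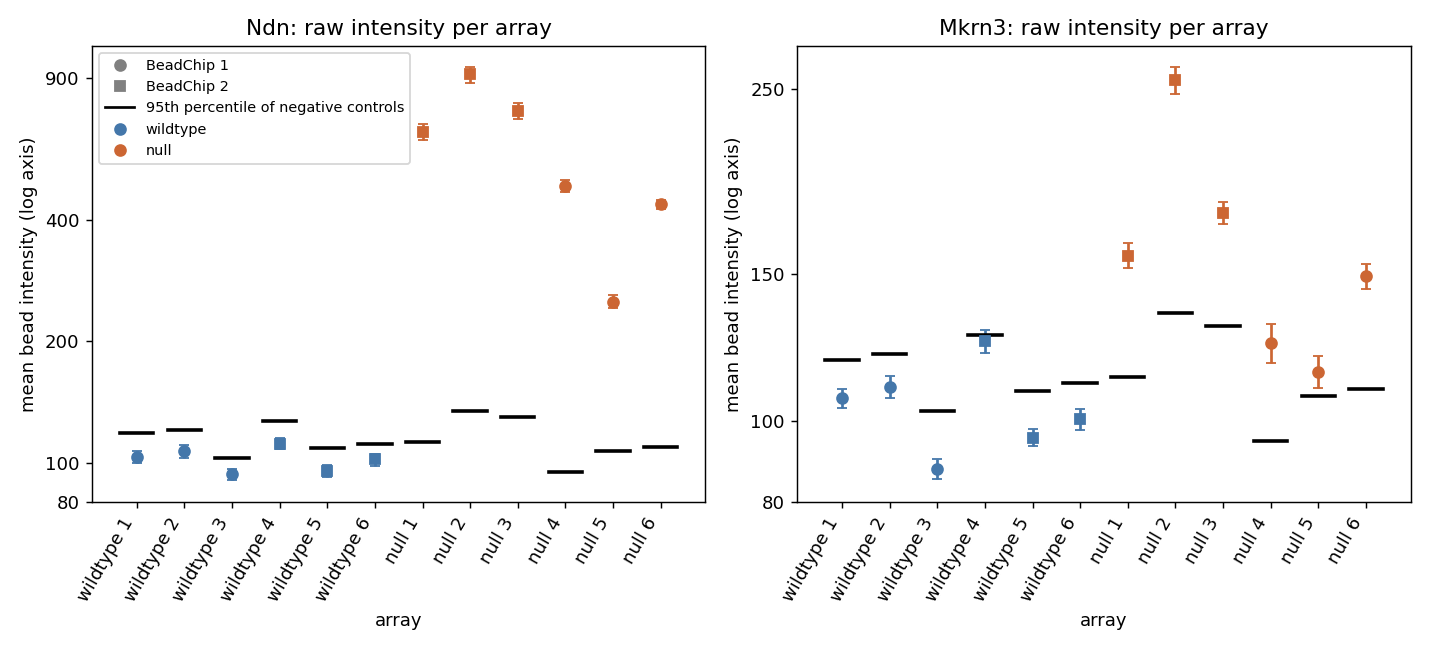
Raw mean bead intensity of the Ndn (left) and Mkrn3 (right) probes on each array, log axis, with the bead standard error as bars, circles for BeadChip 1, squares for BeadChip 2 and a black line at the 95th percentile of the array's negative controls. All wildtype points lie below their black line and all null points above it, with null 5 the lowest null array for both genes.

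The Mkrn3 probe (ILMN_2754447) was likewise detected on 0 wildtype and 6 null arrays, at a lower margin. Its wildtype raw intensity was 87.6 to 124.7, with detection p from 0.062 to 0.718. On the log2 scale the wildtype arrays read 4.35 at the lowest, 4.51 at the median and 4.84 at the highest. Wildtype 4 was the one nearest to detection. The null raw intensities were 157.9, 256.4, 177.8, 124.1, 114.6 and 149.2 for null 1 to null 6, which overlap the wildtype range of raw values through null 4 and null 5. These 2 arrays, with wildtype 3, had the lowest negative controls of the 12, and after background correction and normalization the null arrays read 6.26, 6.81, 6.00, 6.34, 5.28 and 6.37. All 6 then lay above every wildtype array, the lowest by 0.44.

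The null mean of Mkrn3 was 6.18 ± 0.51 and the wildtype mean 4.54 ± 0.17 (SD, n = 6 each). The difference was 1.63 (SE 0.20, 95% interval 1.21 to 2.06, limma adjusted p = 0.00099 over the tested probes and 0.0050 over all probes without a filter, higher in 6 of 6 null arrays). Null 5 was again the lowest, 1.07 below the mean of the other 5 null arrays, and without it the null SD was 0.29. At a stricter detection p of 0.01 the probe was detected on 5 of the 6 null arrays, and at a looser one of 0.1 on 1 wildtype array. All 6 null arrays lay above all 6 wildtype arrays for Ndn and for Mkrn3, an arrangement shown by 1.38% of the tested probes.

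The comparison was also fitted on each BeadChip alone, with 3 arrays per group, over the 17607 tested probes. These probes were chosen by detection on the arrays of both BeadChips, and Ndn and Mkrn3 entered through null arrays alone. No single BeadChip was fitted without that filter, so whether a pass on it would hold over all probes was not tested. For Ndn the difference was 4.16 on BeadChip 1 (limma adjusted p = 0.018) and 4.64 on BeadChip 2 (adjusted p = 2.3e-06). For Mkrn3 it was 1.50 on BeadChip 1, where it did not pass the test (limma adjusted p = 0.17), and 1.77 on BeadChip 2 (adjusted p = 0.027). The contrast between BeadChips was 0.48 for Ndn (SE 0.42, limma interaction adjusted p = 0.87) and 0.27 for Mkrn3 (SE 0.40, adjusted p = 0.92), and neither passed. That interaction test called 0% of the tested probes, with 1007 at an unadjusted p under 0.05. With BeadChip as a block the differences were the same and both passed.

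**Figure D3:**
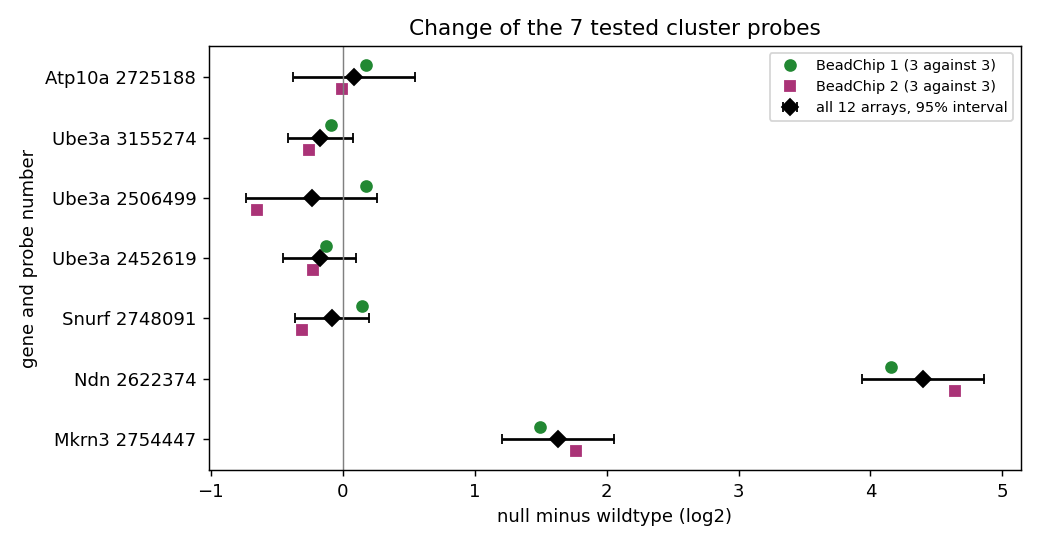
Null minus wildtype difference (log2, x axis) of the 7 tested probes, as black diamonds with 95% intervals over all 12 arrays, green circles for BeadChip 1 and purple squares for BeadChip 2. Ndn at 4.40 and Mkrn3 at 1.63 lie apart from the other 5 probes, whose intervals all contain 0.

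With quantile normalization the correlation of Ndn with Mkrn3 across the 6 null arrays did not pass the test and rested on null 5. Pearson's r was 0.83 (exact permutation p = 0.16, two-sided, n = 6) and Spearman's rho was 0.37 (exact permutation p = 0.50). Without the 2 arrays farthest from the Ndn median, null 4 and null 5, r was 0.09 over 4 arrays, and without null 5 alone it was 0.04 over 5. With median in place of quantile scaling r was 0.88 (exact permutation p = 0.019, n = 6) and rho was 0.94 (exact permutation p = 0.017). Under that scaling r was 0.74 without null 5, so the result depended on the scaling. Both levels come from the same array and share its normalization. No other pair of genes was tested.

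Magel2, a MAGE-family gene that in human and mouse acts in protein trafficking with ubiquitin ligases, lies between Ndn and Mkrn3. Its probe (ILMN_2694539) was detected on 0 of 12 arrays, with wildtype levels of 4.32, 4.39 and 4.45 and null levels of 4.30, 4.42 and 4.53 (lowest, median and highest). Peg12, also called Frat3, belongs to the Frat family of proteins that bind the kinase GSK3, and its probe (ILMN_1221331) was detected on 0 of 12 arrays too. It read 4.24, 4.38 and 4.60 in wildtype and 4.38, 4.41 and 4.50 in null arrays. Neither gene rose above the background on any null array, although both lie beside genes that did. In the fit without a filter the differences were 0.03 for Magel2 (limma adjusted p = 0.86) and 0.02 for Peg12 (adjusted p = 0.94). A probe that reads the background gives a bound on the level at this sensitivity, and does not show that the RNA was absent.

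Snurf encodes a small basic protein from the upstream exons of the transcript that also carries Snrpn, the gene of the spliceosomal protein SmN. Of its 3 probes, ILMN_2741277 and ILMN_1247894 were detected on 0 of 12 arrays. The third, ILMN_2748091, was detected on 3 wildtype and 2 null arrays, close to the limit. It read 4.67, 4.82 and 5.04 in wildtype and 4.49, 4.64 and 5.19 in null arrays (lowest, median and highest), so the groups overlapped over most of their range. The difference was -0.08 (SE 0.13, 95% interval -0.36 to 0.20, limma adjusted p = 0.78). On BeadChip 1 it was 0.15 and on BeadChip 2 it was -0.31. At a detection p of 0.01 the probe was detected on no array.

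Ube3a, the ubiquitin ligase E6-AP, was read by 3 tested probes, with 4 more detected on no array. The files do not say which transcript each probe reads. Probe ILMN_3155274 was detected on all 12 arrays and read 6.64, 6.86 and 7.14 in wildtype and 6.44, 6.67 and 7.02 in null arrays (lowest, median and highest). Its difference was -0.17 (SE 0.11, 95% interval -0.42 to 0.08, limma adjusted p = 0.45). Probe ILMN_2506499, also detected on all 12 arrays, read 5.69, 6.32 and 6.81 in wildtype and 5.37, 5.93 and 6.57 in null arrays. The groups overlapped for both probes, with no null array above the highest wildtype array.

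The difference of ILMN_2506499 was -0.24 (SE 0.23, 95% interval -0.73 to 0.26, limma adjusted p = 0.62). It was 0.18 on BeadChip 1 and -0.65 on BeadChip 2, a contrast of -0.83 between BeadChips (SE 0.39) that did not pass the interaction test (limma adjusted p = 0.85, unadjusted 0.054). Probe ILMN_2452619 was detected on 4 wildtype and 3 null arrays, with means of 5.08 ± 0.19 and 4.90 ± 0.26 (SD, n = 6 each). Its difference was -0.17 (SE 0.13, limma adjusted p = 0.50). All 3 tested Ube3a probes had negative differences, and 0 of them passed the test.

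Atp10a encodes a phospholipid flippase and lies at the other end of the listed genes. Its probe (ILMN_2725188) was detected on all 12 arrays. Wildtype arrays read 5.79, 6.03 and 6.31 and null arrays 5.19, 6.06 and 6.80 (lowest, median and highest), so the null arrays spread to both sides of the wildtype range. Null 5 gave the lowest value and null 4 the highest, and 2 null arrays lay above the highest wildtype array. The difference of the means was 0.08 (SE 0.21, 95% interval -0.38 to 0.55, limma adjusted p = 0.87).

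The 8 probes detected on no array, 4 of Ube3a, 2 of Snurf and those of Magel2 and Peg12, had mean levels between 4.33 and 4.45 and differences between -0.07 and 0.07 without a filter. Bead numbers per array were 20 to 69 for the 15 probes.

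The neighbours of the cluster on chromosome 7 gave 0 calls. Of 21 listed, 19 had a probe and 10 were tested, with a median difference of 0.02 beside -0.04 over all tested probes. Those of smallest p were Nipa1, a magnesium transporter of the non-imprinted part of the region (0.36, SE 0.11, limma adjusted p = 0.12), and Mphosph10, a component of ribosomal RNA processing (-0.40, SE 0.16, adjusted p = 0.21). Cyfip1, a regulator of actin and translation (0.46, SE 0.21), and Mcee, a mitochondrial epimerase (0.21, SE 0.09), both had a limma adjusted p of 0.26. The GABA receptor gene Gabra5 and the pigment gene Oca2 were among 7 neighbours detected on no array.

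Among the paralogs of the listed genes elsewhere in the genome, 12 of 14 were tested, 0 rose and 0 fell, and the median difference was -0.04. The Frat genes, relatives of Peg12, had the smallest p: Frat2 differed by -0.84 (SE 0.20, limma adjusted p = 0.057) and Frat1 by -0.63 (SE 0.16, adjusted p = 0.076). Mkrn2, a relative of Mkrn3, differed by -0.24 (SE 0.07, limma adjusted p = 0.12). Maged1, a MAGE-family relative of Ndn on the X chromosome, differed by 1.13 (SE 0.36, limma adjusted p = 0.14). None of the 4 passed, and they did not share a direction.

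Factors known to keep or read methylation imprints also gave 0 calls among 11 tested of 17 listed, with a median difference of -0.11. Uhrf1, the partner of the maintenance methyltransferase, differed by -0.39 (SE 0.13, limma adjusted p = 0.15). Dnmt1, that methyltransferase, differed by -0.34 (SE 0.12, limma adjusted p = 0.17) and the insulator protein Ctcf by -0.24 (SE 0.10, adjusted p = 0.23). Zfp57 was among 5 factors detected on no array. Unadjusted p-values under 0.05 numbered 4 of 10 among the neighbours, 5 of 12 among the paralogs and 4 of 11 among the factors, beside 18.1% of all tested probes.

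Markers of other cell types also varied between the null arrays, and their part in the rise of Ndn and Mkrn3 was not tested. Fits given below used the neutrophil and monocyte mean and the plasmacytoid dendritic mean alone. No gene of the 10 marker lists passed the test. An unadjusted limma p under 0.05 was found for 18.1% of all tested probes. So it was for 9 of 11 T and NK, 3 of 7 plasmacytoid dendritic and 2 of 4 stem and progenitor genes, all higher in null arrays. The 3 of 12 pre-B genes were lower (Il7r -0.99, Rag1 -0.92, Blnk -0.25). The 4 of 5 plasma cell genes were split: Fkbp11 (0.78) and Xbp1 (0.61) were higher, Irf4 (-0.51) and Slamf7 (-0.65) lower. Among the other lists it was 1 of 4 neuron and glia, 1 of 4 endothelial and 1 of 2 stroma genes. It was 0 of 12 neutrophil and monocyte and 0 of 4 red cell genes. As means relative to the wildtype mean, the 12 tested pre-B genes ran from -1.12 (null 5) to 0.46 (null 4) in null arrays and from -0.22 to 0.09 in wildtype arrays. The 12 neutrophil and monocyte genes ran from -0.35 to 3.54 (null 3) in null arrays and the 7 plasmacytoid dendritic genes from -0.12 to 2.41 (null 5), against -0.44 to 0.47 and -0.42 to 0.62 in wildtype arrays. Null 5, with the highest plasmacytoid dendritic and the lowest pre-B means, had the lowest Ndn, Mkrn3 and Atp10a levels among the 6 null arrays. Its T and NK, plasma cell, stroma, neuron and glia, stem and progenitor and endothelial means were also the highest of the null arrays.

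The 11 T and NK genes ran from 0.12 to 1.47 in null arrays and from -0.13 to 0.18 in wildtype arrays, again with null 5 highest. Only 2 of 12 stroma genes matched to the array were tested, Thy1 and Cxcl12, with null means of 0.24 to 1.71 and wildtype means of -0.18 to 0.21, and Col1a1, Col1a2, Col3a1, Dcn, Lum, Pdgfrb and Lepr were detected on no array. Of 11 neuron and glia genes 4 were tested, with null means of 0.12 to 1.10 and wildtype means of -0.09 to 0.10, while Snap25, Syt1, Gap43, Gfap, Nes and Olig2 were detected on no array. Stem and progenitor genes (4 tested) ran from 0.13 to 1.43 in null and from -0.16 to 0.24 in wildtype arrays, with Flt3, Procr and Hlf detected on no array. For plasma cell genes (5 tested) the null range was -0.01 to 0.37, for endothelial genes (4 tested) -0.04 to 0.56, and for red cell genes (4 tested) -0.99 to 1.33, beside wildtype ranges of -0.10 to 0.11, -0.12 to 0.12 and -0.36 to 0.77.

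**Figure D4:**
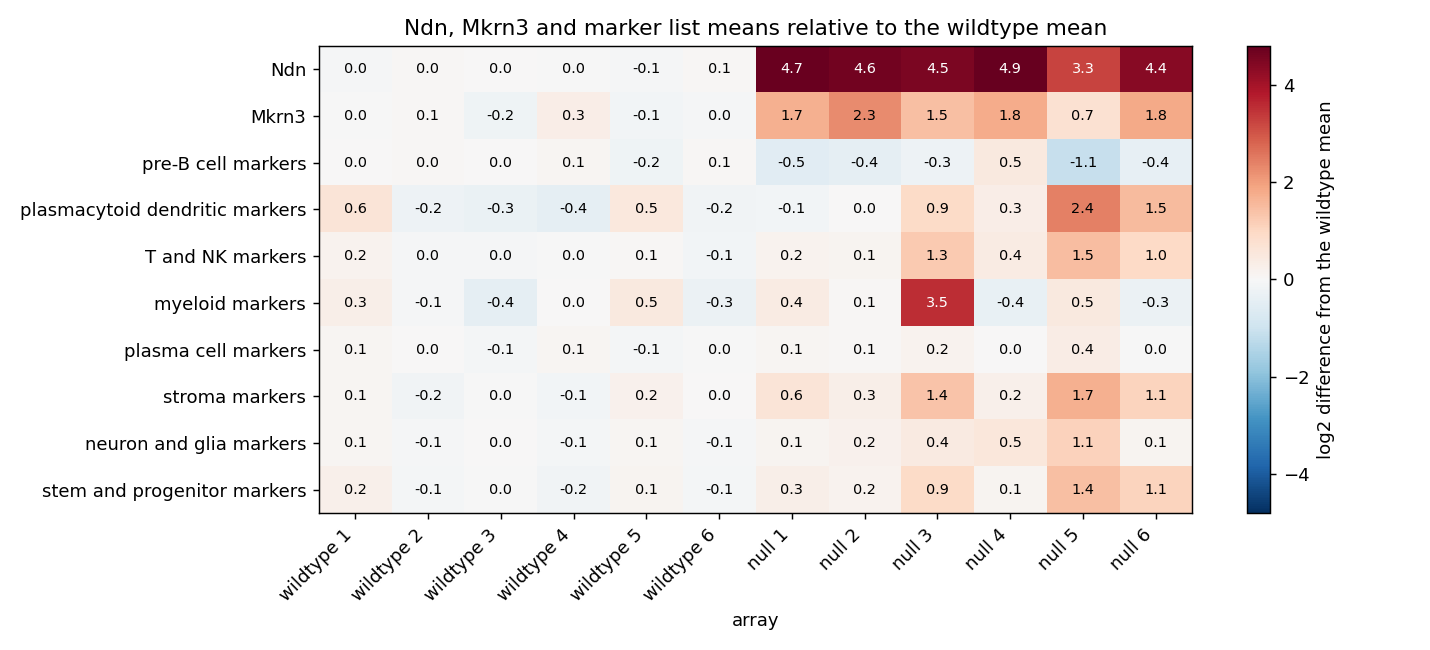
Level of Ndn, Mkrn3 and 8 marker list means on each of the 12 arrays, as the log2 difference from the wildtype mean (colour and printed value). Ndn, Mkrn3 and the stroma and neuron and glia means lie above every wildtype array on all 6 null arrays, while the myeloid mean is highest on null 3 and the plasmacytoid dendritic mean on null 5.

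Both genes were also fitted without the arrays of highest myeloid and plasmacytoid dendritic means. With null 3 and null 5 left out, the difference was 4.65 for Ndn and 1.90 for Mkrn3. With only null 1 and null 2 kept against the 6 wildtype arrays it was 4.68 and 1.99. With the neutrophil and monocyte mean and the plasmacytoid dendritic mean as covariates it was 4.77 and 1.97. Both genes passed the limma test in each of these fits, in which the other marker lists were not used. Null 1 and null 2 still had stroma means of 0.61 and 0.30 and neuron and glia means of 0.12 and 0.19, above every wildtype array. Their pre-B means were -0.53 and -0.44, below the lowest wildtype mean of -0.22. The stem and progenitor mean of null 1 was 0.27, above the highest wildtype mean of 0.24, and that of null 2 was 0.18. The part of these markers was not tested.

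The step from 0 of 6 wildtype to 6 of 6 null arrays detected was seen for 16 of all 45281 probes (0.0353%), and the reverse step for 11 (0.0243%). Ndn and Mkrn3 were both among the 16. Since the 16 were chosen by this step, their differences are a description with no test. Beside Ndn and Mkrn3, the probe of Elavl2, a neuronal RNA-binding protein, was at least 3.96-fold higher in null arrays. The bound was 3.20-fold for Lrig3, a transmembrane protein, 2.32-fold for Ncam1, an adhesion molecule known from neurons, and 2.63-fold for Fzd10, a Wnt receptor. For the zinc finger genes Zbtb32 and Tshz3 it was 2.14-fold and 1.72-fold. These bounds rest on means of null arrays that differed widely. On the log2 scale the null arrays ran from 5.62 to 8.09 for Elavl2, 5.72 to 8.40 for Lrig3 and 5.19 to 7.50 for Ncam1. They ran from 5.37 to 8.54 for Fzd10, 5.14 to 8.33 for Zbtb32 and 4.93 to 7.34 for Tshz3. The likeness is in detection on 12 arrays, and says nothing of shared function.

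**Figure D5:**
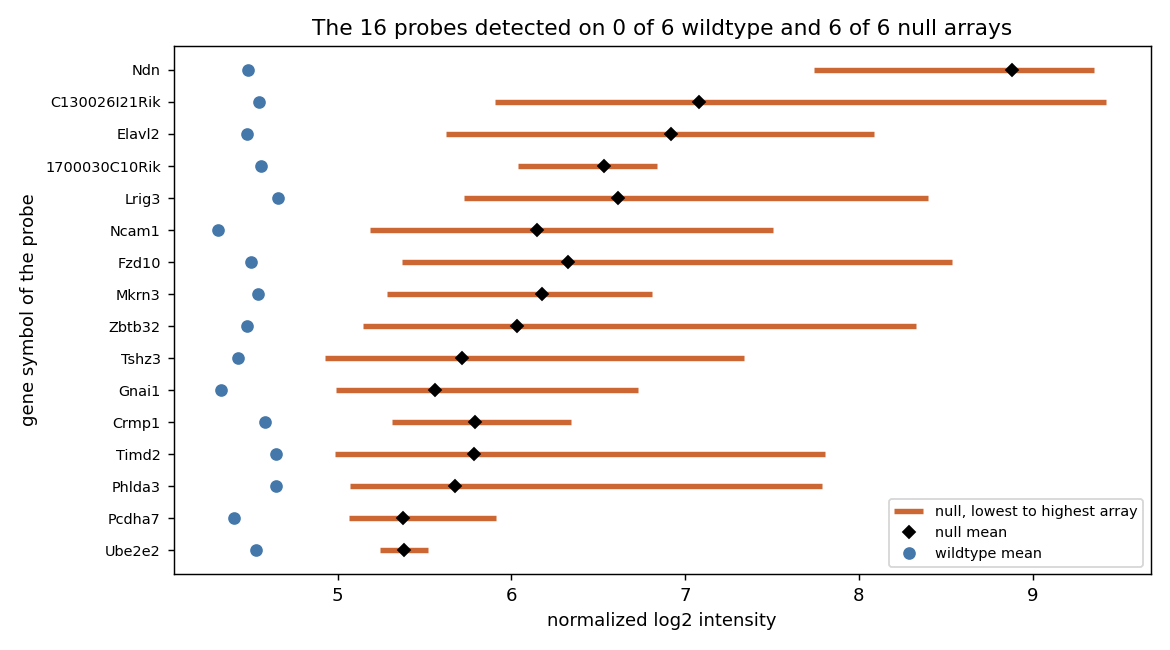
Normalized log2 intensity (x axis) of the 16 probes detected on 0 wildtype and 6 null arrays: blue points are wildtype means, black diamonds null means and orange lines the range of the 6 null arrays. For each of the 16 probes the null line lies to the right of the wildtype mean, as the choice by detection requires, and levels of different probes cannot be compared.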

How the data were processed

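Total RNA of 12 sorted samples was hybridised as biotinylated cRNA to 1 Illumina mouse array each. The deposited intensity values are mean bead intensities per probe on a linear scale, with a bead count, a bead SD and a detection score, per the file headers. That score, a fraction, equals 1 minus the detection p-value of another deposited table of these values. The authors' processed log2 values form a further table. Tools named were GenomeStudio 1.8.0, per the file headers, and, per the submitters' processing notes, R 2.15.1 with limma 3.12.1 and BeadStudio. No source used here gives a genome build, so gene order, names and promoter sequences come from RefSeq tables of GRCm38.p6.

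The intensities were background-corrected with 936 negative controls, quantile normalized (offset 16) and log2-transformed with neqc (limma 3.58.1, R 4.3.3). They differed from the authors' log2 values by at most 5.0e-09. Probes detected (p under 0.05) on at least 3 of 12 arrays, 17607 in all, were fitted with lmFit and eBayes, null against wildtype, with Benjamini-Hochberg adjustment over all of them. A fold against a group that did not detect a probe is a bound, from the lowest signal among detected probes on each array. The fit was tested on simulated data. Probe names were updated through the RefSeq gene table: 27400 matched a symbol, 8341 a synonym and 9540 kept the name in the file. Number of arrays limits the precision.

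The genes, lists and alternatives were chosen with earlier results of these data known. Every probe of every listed gene is reported. In the lists of neighbours, paralogs and imprint factors up to 4 genes of smallest p are named, except 1 that is not reported here, and up to 8 genes with the detection pattern of Ndn, leaving out symbols ending in Rik (2 of 16). Alternatives were other background corrections and scaling, other filters, a block for BeadChip or for replicate number, either BeadChip by itself, arrays left out, marker means as covariates, array weights, another prior and other detection thresholds. The scaling of the correlation between Ndn and Mkrn3 was added after seeing the data. Protein identity between Ndn and Magel2 was planned and not analysed here.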

Additional observations from a re-analysis of the deposited data

Results flagged for a closer look

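The Ndn level of null 5, 7.74 on the log2 scale, stood apart from those of the other 5 null arrays, which lay between 8.85 and 9.36. Its gap to the nearest of them was 0.69 of the range of the group, above Dixon's critical value at the 95% level for 6 samples. It was the only 1 of 30 groups (15 probes in 2 groups) to do so, and chance marks about 1 group in 20. Without null 5 the Ndn difference was 4.62 and that of Mkrn3 1.81. Null 5 also had the lowest mean of the pre-B markers (-1.12) and the highest of the plasmacytoid dendritic markers (2.41). It was the highest null array as well for T and NK (1.47), stroma (1.71) and stem and progenitor markers (1.43). The same held for neuron and glia (1.10), endothelial (0.56) and plasma cell markers (0.37), while null 3 was highest for myeloid and red cell markers. The part of these markers in the Ndn level of null 5 was not tested.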

How the results depend on the processing

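Ndn passed the test under all 28 alternatives, with differences from 2.46 (no background correction) to 4.77 (marker covariates), and Mkrn3 under 27 of 28, from 0.62 (no background correction) to 1.99. With an offset of 50 they were 3.17 and 0.91. On BeadChip 1 alone Mkrn3 did not pass (1.50, limma adjusted p = 0.17), so 1 probe in place of 2 was higher there, with 3 arrays per group; the cause was not tested beyond that. With each array left out in turn Ndn ran from 4.30 to 4.62 and Mkrn3 from 1.51 to 1.81. No other tested probe passed under any alternative, and 0 probes were lower under any. With the replicate block Ndn was 4.40 (limma adjusted p = 2.3e-05) and Mkrn3 1.63 (adjusted p = 0.0039). Same-numbered arrays deviated from their group means with correlations of -0.29 to 0.08. Each same-numbered null and wildtype array lay on different BeadChips, so these values cannot decide whether the numbers mark pairs.

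Over all probes the 94 higher and 121 lower became 64 and 40 with the replicate block, 128 and 176 with BeadChip as a block, 190 and 190 with array weights and 59 and 33 with median scaling, and 49 and 52 without a filter. They were 7 and 5 on BeadChip 1 alone, 33 and 10 on BeadChip 2 alone, and 44 and 20 with marker covariates. With 1 array left out the higher count ran from 40 (without wildtype 3 or wildtype 6) to 136 (without null 5). The lower count ran from 28 (without wildtype 3 or wildtype 6) to 189 (without null 2). Leaving out wildtype 1, 2, 3, 4 or 6 or null 2, 3 or 6 moved a count by over 1.5 times. Median scaling moved the median of all tested probes from -0.04 to -0.09. It also gave a correlation of Ndn with Mkrn3 of r = 0.88 (exact permutation p = 0.019, n = 6) in place of 0.83, and 0.74 without null 5; the cause was not tested. With each null array left out r ran from 0.04 to 0.92. At a detection p under 0.01 the Snurf probe was detected on 0 arrays and the dimmer tested Ube3a probe on 1 wildtype and 0 null arrays, and 17 probes had the detection pattern of Ndn. Probes at the background carry no information on small differences.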
